A study of Mus musculus with 8 samples.

Results

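The genes described here are 10 that macrophages use to signal inflammation and to instruct T cells: the secreted cytokine genes Tnf, Il6, Il10, Il12a, Il12b and Il23a, the surface costimulation genes Cd80, Cd86 and Cd40, and Socs3, an intracellular brake on cytokine receptors. They were chosen by name, and each was read from the array row that carries its symbol alone. All 10 were measured, among 22180 genes tested. Socs3 had a second row, and for it the row of higher mean over the 8 arrays was used.

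Total RNA of hepatic macrophages was hybridised to 8 arrays, 4 from mice given recombinant transferrin (rTF, 25 µg) and 4 from mice given recombinant CPS1 (rCPS1, 50 µg). All were male FVB/N mice aged 8 weeks, injected in the tail vein 12 h before intraperitoneal acetaminophen at 350 mg/kg. Such a dose can kill hepatocytes, but no measure of injury is given with the arrays. Both groups received the drug, and neither is a control without it. CPS1 is a mitochondrial urea cycle enzyme of hepatocytes and transferrin is the iron carrier of plasma, and protein and amount changed together between the groups. Every title reads Mouse1 with a replicate number, so the labels do not settle whether the arrays of a group came from separate mice, and the p-values given here cover array-to-array spread that may be technical.

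Macrophages that sense dying cells or microbial products switch on Tnf and Il6 within hours through NF-kappaB, and IL-10 feeds back to dampen the same response. IL-12 and IL-23 share 1 chain, p40, encoded by Il12b. It pairs with p35 from Il12a to make IL-12, which drives interferon-gamma production by T and NK cells, or with p19 from Il23a to make IL-23, which sustains IL-17 responses. CD80 and CD86 bind CD28 or the inhibitory CTLA4 on T cells, and CD40 receives CD40 ligand from them. IL-6 and IL-10 both signal through STAT3, and SOCS3, itself a STAT3 target, binds the IL-6 receptor complex and shortens its signal. In the liver this set is widely measured to follow Kupffer cells and incoming monocytes after acetaminophen.

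None of the 10 genes separated the groups. In limma's fit over all genes 0 of 10 passed an adjusted p of 0.05, with adjusted p between 0.98 and 0.997, and percent called over all genes was 0. An unadjusted p under 0.05 was reached by 0 of 10, against 4.67% of all genes (2.79% lower and 1.88% higher with rCPS1), and 0 of 10 had groups that did not overlap, against 2.92% of all genes. The level was lower with rCPS1 for 7 genes and higher for 3, and 54.4% of all genes were lower. The median log2 difference of the 10 was -0.088, beside -0.018 over all genes tested. These values are RMA levels on a log2 scale, in which a difference of 1 is a doubling, and a probe set's level cannot be ranked against that of another gene.

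**Figure D1:**
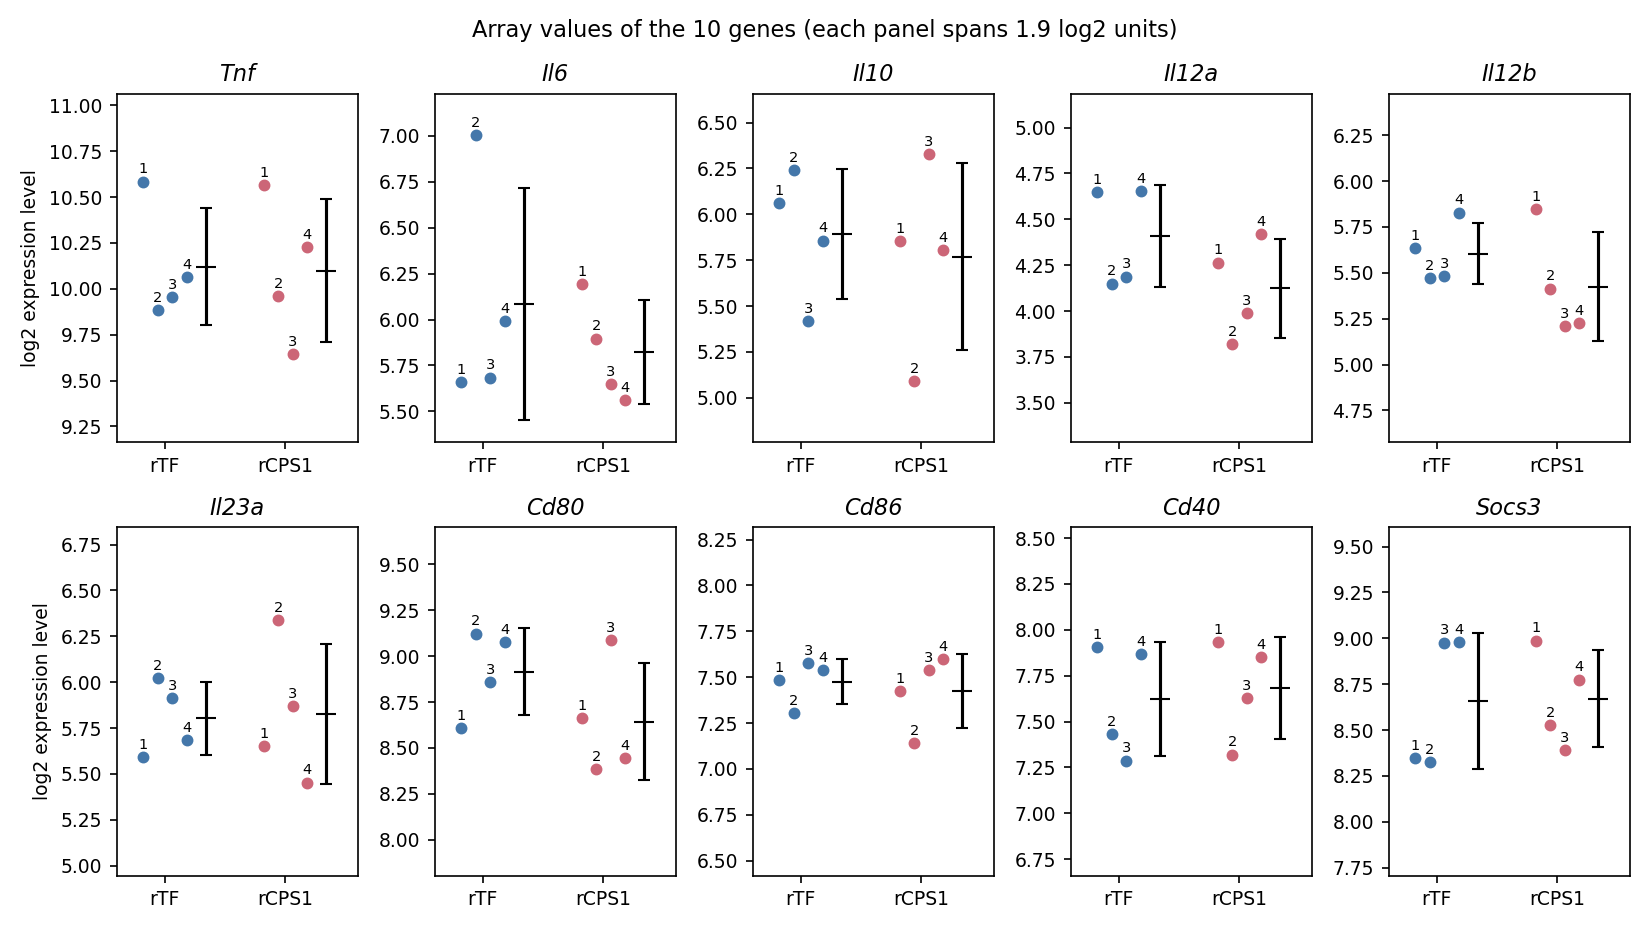
Log2 expression level of each gene on the 8 arrays, with the replicate number above each point, rTF in blue and rCPS1 in red, and the group mean with its SD (n = 4) as a black bar. In all 10 panels the rTF and rCPS1 points overlap, and the widest spread is that of Il6, where rTF replicate 2 lies at 7.003.

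Tnf, the first cytokine that activated macrophages release, read 10.58, 9.88, 9.95 and 10.06 on rTF arrays 1 to 4 and 10.57, 9.96, 9.65 and 10.23 on rCPS1 arrays 1 to 4. Replicate 1 was the highest array of each group, and the other 6 arrays were interleaved. The group means, 10.12 ± 0.32 for rTF and 10.10 ± 0.39 for rCPS1 (SD, n = 4 each), gave a log2 difference of -0.022 ± 0.22 (SE, adjusted p = 0.995). As a ratio, rCPS1 over rTF was 0.985 with a 95% interval of 0.705 to 1.38. The difference turned to 0.13 without rTF replicate 1, to 0.024 without rCPS1 replicate 2 and to 0.13 without rCPS1 replicate 3.

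Il6, the acute-phase cytokine that also supports liver regeneration, read 5.66, 7.003, 5.68 and 5.99 on the rTF arrays and 6.19, 5.90, 5.65 and 5.56 on the rCPS1 arrays. The array rTF replicate 2 stood above all other arrays, whose highest value was 6.19, and apart from it the groups were interleaved. The means were 6.08 ± 0.63 and 5.82 ± 0.28 (SD, n = 4 each), a difference of -0.26 ± 0.28 (SE, adjusted p = 0.98). Without rTF replicate 2 the difference was 0.046 ± 0.17 (SE), so the lower mean with rCPS1 rests on 1 rTF array. That array stood apart over the whole table on the first principal component of all array rows (21.5% of the variance). Its score was 78.3, against -36.0 to 7.45 elsewhere. It held the highest mean of a list of T and NK cell markers, 7.24 against 5.81 to 6.38 elsewhere. It was also highest for the neutrophil (6.71), dendritic cell (6.69) and sinusoidal endothelial (11.54) lists, but not for the remaining lists. In those 3 lists the next highest arrays read 6.59, 6.54 and 11.49. The part of these features in the Il6 value was not tested. Of the genes, Il6 had the largest residual SD, 0.49, higher than in 94.9% of all genes.

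Il10, the cytokine that restrains inflammatory macrophages, read 6.06, 6.24, 5.42 and 5.86 with rTF and 5.86, 5.09, 6.33 and 5.80 with rCPS1. The lowest and the highest of the 8 arrays were both in the rCPS1 group, replicates 2 and 3. Its means were 5.89 ± 0.35 and 5.77 ± 0.51 (SD, n = 4 each), with a difference of -0.12 ± 0.26 (SE, adjusted p = 0.985) that turned to 0.10 without rCPS1 replicate 2. The interval of the ratio, 0.616 to 1.37, was among the widest of the set.

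The promoters of 6 of the 10 genes were in the RefSeq table (build GRCm38.p6), as 7 windows of 250 bases before to 50 after a start site. The 3 shown hold a match to a motif of the factors that textbook accounts place upstream of these genes, and they let the measured genes be read beside their control regions. Capitals mark matches to GGG, NN and TTTCC in a row (NF-kappaB, N being any base), TTGNGNAA (C/EBP) and TTCNNNGAA (STAT), searched on both strands, and no match overlapped another. The windows are chr5:30012864-30013163 (plus strand, Il6), chr17:35201958-35202257 (minus strand, Tnf) and chr11:117969317-117969616 (minus strand, Socs3), each printed 5′ to 3′ in the direction of the gene.
Il6: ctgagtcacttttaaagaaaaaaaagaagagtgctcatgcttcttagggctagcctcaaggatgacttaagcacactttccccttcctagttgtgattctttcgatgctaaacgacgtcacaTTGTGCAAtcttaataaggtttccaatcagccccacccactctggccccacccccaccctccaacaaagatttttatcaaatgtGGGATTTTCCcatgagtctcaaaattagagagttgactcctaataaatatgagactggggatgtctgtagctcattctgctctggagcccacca
Tnf: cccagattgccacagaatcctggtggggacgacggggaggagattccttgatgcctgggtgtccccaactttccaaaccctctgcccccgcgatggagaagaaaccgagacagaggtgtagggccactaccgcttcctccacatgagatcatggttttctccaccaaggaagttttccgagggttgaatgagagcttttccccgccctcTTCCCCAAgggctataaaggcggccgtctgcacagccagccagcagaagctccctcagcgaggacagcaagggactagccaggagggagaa
Socs3: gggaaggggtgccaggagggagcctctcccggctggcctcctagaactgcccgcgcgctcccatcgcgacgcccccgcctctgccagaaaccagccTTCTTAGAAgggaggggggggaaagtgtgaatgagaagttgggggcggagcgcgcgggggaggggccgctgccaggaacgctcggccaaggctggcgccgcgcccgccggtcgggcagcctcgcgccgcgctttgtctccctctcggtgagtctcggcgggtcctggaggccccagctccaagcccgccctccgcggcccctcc
The Il6 window held the NF-kappaB match GGGATTTTCC beginning at position -44 from the start site and the C/EBP match TTGTGCAA at -128. The Tnf window held a C/EBP match on the reverse strand at -41, read TTCCCCAA along the printed strand, and the Socs3 window a STAT match, TTCTTAGAA, at -154. Of 32544 promoter windows of this length, 1.61% held the NF-kappaB letters, 13.3% the C/EBP letters and 8.33% the STAT letters. The windows of Il12a (2 starts), Il12b and Cd80 held no match, which says only that these letters are not in those bases. A match is not evidence of binding, and no binding was measured.

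The p35 subunit gene Il12a had the smallest unadjusted p of the set (0.136). It read 4.65, 4.15, 4.19 and 4.65 with rTF and 4.26, 3.82, 3.99 and 4.42 with rCPS1. The 2 highest arrays were rTF replicates 1 and 4 and the 2 lowest were rCPS1 replicates 2 and 3. Between them the order was turned, with rCPS1 replicates 1 and 4 above rTF replicates 2 and 3, so the groups overlapped. Means of 4.41 ± 0.28 and 4.12 ± 0.27 (SD, n = 4 each) gave a difference of -0.29 ± 0.18 (SE, adjusted p = 0.98), or a ratio of 0.820 with an interval of 0.624 to 1.08. It stayed below 0 when any 1 array was left out, from -0.39 to -0.19.

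Il12b, the shared p40 chain, read 5.64, 5.47, 5.48 and 5.83 with rTF and 5.85, 5.41, 5.21 and 5.23 with rCPS1. Replicate 1 of rCPS1 was the highest of all arrays and the other 3 rCPS1 arrays lay below every rTF array. The difference was -0.18 ± 0.16 (SE, adjusted p = 0.98), from means of 5.60 ± 0.17 and 5.42 ± 0.30 (SD, n = 4 each). Without rCPS1 replicate 1 it was -0.32 ± 0.14 (SE, unadjusted p = 0.0422, adjusted p = 0.974).

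Il23a, the p19 chain of IL-23, read 5.59, 6.02, 5.91 and 5.68 with rTF and 5.65, 6.34, 5.87 and 5.45 with rCPS1. The rCPS1 arrays held both the highest and the lowest value, and the rTF arrays lay inside that range. The means, 5.80 ± 0.20 and 5.83 ± 0.38 (SD, n = 4 each), differed by 0.025 ± 0.19 (SE, adjusted p = 0.994), a sign that turned when the arrays were centred on their medians (-0.015) or quantile normalized again (-0.010).

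**Figure D2:**
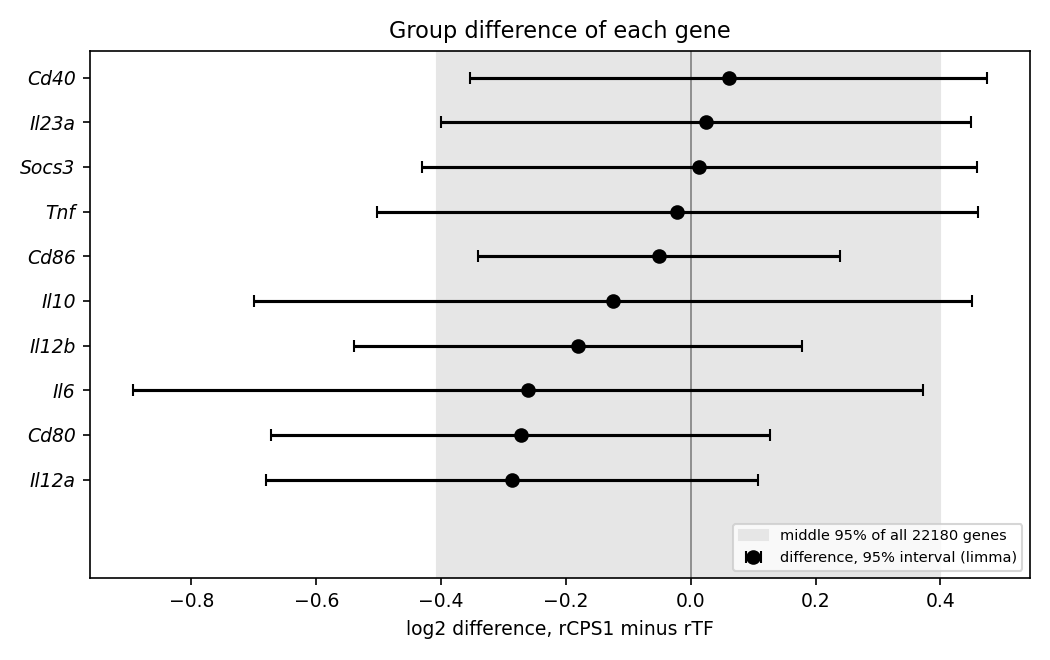
Log2 difference, rCPS1 minus rTF, of each gene with its 95% confidence interval from limma (n = 4 per group), over a grey band that holds the middle 95% of the differences of all 22180 genes (-0.41 to 0.40). Each of the 10 intervals crosses 0 and each estimate lies inside the band.

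Cd80, a ligand of CD28 and CTLA4, read 8.61, 9.12, 8.86 and 9.08 with rTF and 8.66, 8.38, 9.09 and 8.44 with rCPS1. Replicate 3 of rCPS1 lay among the high rTF arrays, replicate 1 lay just above the lowest rTF array, and replicates 2 and 4 lay below all of the rTF arrays. Means of 8.92 ± 0.24 and 8.64 ± 0.32 (SD, n = 4 each) differed by -0.27 ± 0.18 (SE, adjusted p = 0.98). Leaving out rCPS1 replicate 3 made the difference -0.42 ± 0.16 (SE, unadjusted p = 0.0256, adjusted p = 0.999), and the range with any 1 array left out was -0.42 to -0.19.

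Cd86, the second ligand of CD28 and CTLA4, varied least. It read 7.48, 7.30, 7.58 and 7.54 with rTF and 7.42, 7.14, 7.54 and 7.60 with rCPS1, and replicate 2 was the lowest array of each group. The difference was -0.051 ± 0.13 (SE, adjusted p = 0.988), from means of 7.48 ± 0.12 and 7.42 ± 0.20 (SD, n = 4 each). Its interval as a ratio, 0.79 to 1.18, was the narrowest of the 10, and its residual SD of 0.17 was the only one of the 10 below the median of all genes (0.22).

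Cd40, the receptor through which T cells license antigen-presenting cells, read 7.91, 7.43, 7.29 and 7.87 with rTF and 7.93, 7.32, 7.63 and 7.85 with rCPS1. In both groups replicates 1 and 4 were the 2 highest arrays. The means of 7.62 ± 0.31 and 7.68 ± 0.28 (SD, n = 4 each) differed by 0.061 ± 0.19 (SE, adjusted p = 0.988).

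Socs3, the STAT3-induced inhibitor, read 8.35, 8.33, 8.98 and 8.98 with rTF and 8.99, 8.53, 8.39 and 8.78 with rCPS1. The rTF arrays fell into a low pair and a high pair, and all but 1 of the rCPS1 arrays lay between them. Its means were 8.66 ± 0.37 and 8.67 ± 0.26 (SD, n = 4 each), a difference of 0.014 ± 0.20 (SE, adjusted p = 0.997). The second Socs3 row averaged 4.64 ± 0.33 with rTF and 4.58 ± 0.33 with rCPS1 (SD, n = 4 each), a difference of -0.055. Across the 8 arrays the rows rose and fell together, with Pearson r = 0.889 (exact permutation p = 0.00327), Spearman rho = 0.881 (exact permutation p = 0.00724) and r = 0.815 without the 2 arrays farthest from the median. With the mean of both rows the difference was -0.020.

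The sizes of these differences were ordinary for the table. For 5 of the 10 genes the absolute difference was above the median of all genes, 0.11. For 9 of 10 the residual SD was above the median of all genes, though not far above it for each. It was higher than in 57.2% of all genes for Il12b, 67.2% for Il12a, 92.3% for Il10 and 94.9% for Il6, and 29.1% for Cd86. The SE of a difference ran from 0.13 to 0.28, beside a median SE of 0.15. All 10 rows were brighter than the median array row, a low bar, since the array rows include rows without a gene symbol. Il12a passed it by the least, being brighter than 58.0% of array rows. Levels of different probe sets cannot be ranked as expression and the files give no detection call. The comparison therefore does not show that each gene was detected.

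The genes did not follow 1 common pattern over the arrays. Of 45 pairs, 26 had a positive correlation over the 8 arrays, the median r was 0.11, and 4 had an unadjusted exact permutation p under 0.05, of which 0 stayed below it after adjustment over the 45 pairs. Il23a ran opposite to Cd40, with r = -0.855 (exact permutation p = 0.00506, adjusted p = 0.228), rho = -0.762 (exact permutation p = 0.0368, adjusted p = 0.496) and r = -0.909 without the 2 farthest arrays. The 2 private chains Il12a and Il23a also ran opposite, with r = -0.808 (exact permutation p = 0.0150, adjusted p = 0.300), rho = -0.762 (exact permutation p = 0.0368, adjusted p = 0.496) and r = -0.903 without the 2 arrays farthest from the Il12a median, rTF replicates 1 and 4. Arrays with a high p35 level, rTF replicates 1 and 4 and rCPS1 replicate 4, thus had a low p19 level, while rCPS1 replicate 2 had the lowest Il12a and the highest Il23a of all arrays. Without rCPS1 replicate 2 the r of Il12a and Il23a was -0.669, its weakest value with any 1 array left out.

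Il12a and Cd40 ran together, with r = 0.74 (exact permutation p = 0.0427, adjusted p = 0.481), rho = 0.667 (exact permutation p = 0.0831, adjusted p = 0.496) and r = 0.626 without the 2 farthest arrays. The relation of Il23a to Cd86 (r = -0.787, exact permutation p = 0.0200, adjusted p = 0.300, rho = -0.571 with exact permutation p = 0.151 and adjusted p = 0.523) fell to r = -0.275 without rCPS1 replicates 2 and 4, so it rests on those arrays. No r was computed within a group of 4 arrays, and the relations were not tested within groups. After each group was set to a mean of 0, r was -0.867 for Il23a and Cd40, -0.916 for Il12a and Il23a and 0.942 for Il12a and Cd40.

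**Figure D3:**
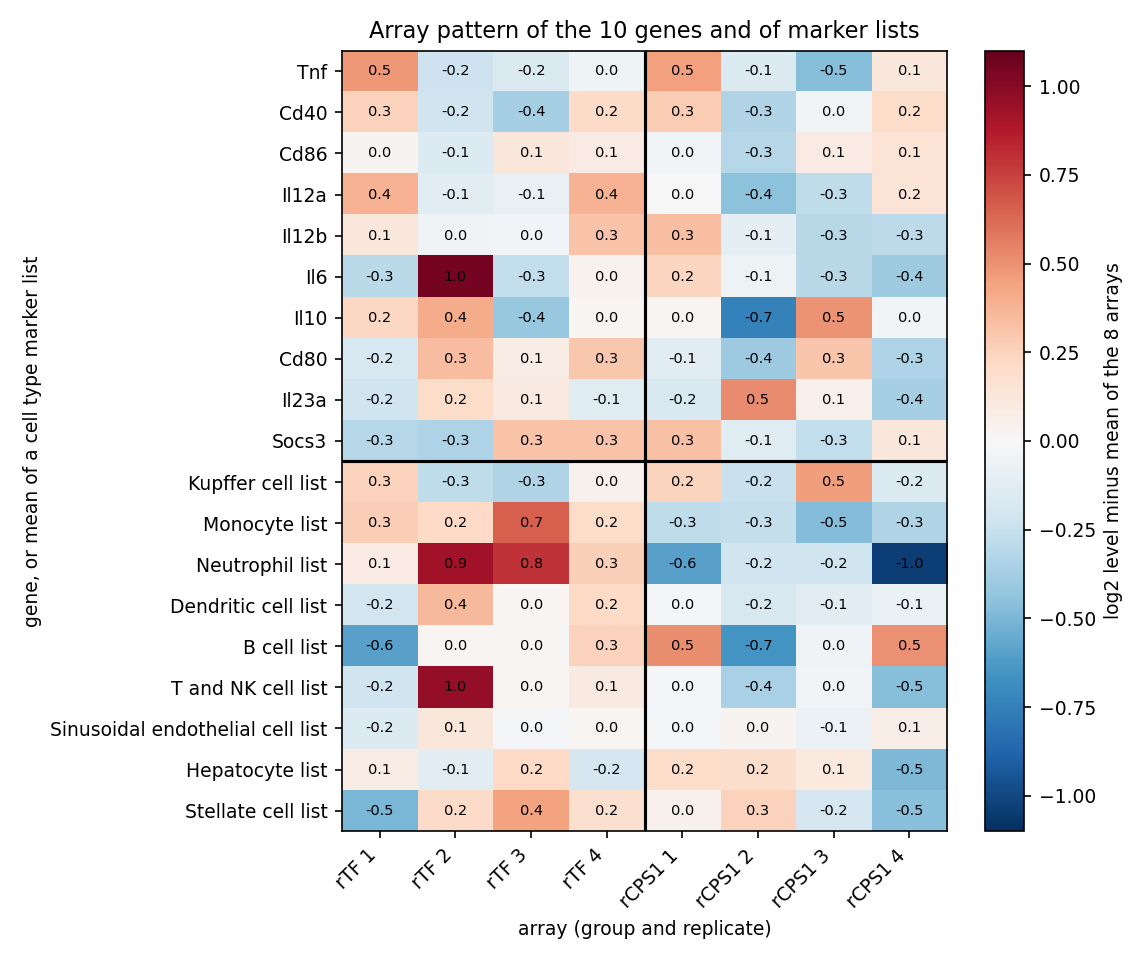
Log2 level minus the mean of the 8 arrays, for the 10 genes (above the line) and for the mean of each cell type marker list (below it), 1 column per array, with the value in each cell. The rCPS1 side of the gene block is not uniformly higher or lower, rCPS1 replicate 2 holds the lowest value of 4 genes, and the neutrophil and monocyte lists are lower on every rCPS1 array than on any rTF array.

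The lowest and the highest array of each gene were spread over the 8 arrays. Replicate 2 of rCPS1 was the lowest array for Il10, Il12a, Cd80 and Cd86 and the highest for Il23a, 5 of the 20 extremes. The other rCPS1 arrays held 3 each, rTF replicate 2 held 3, and the remaining rTF arrays held 1 each.

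The genes whose array pattern was nearest were found by the root mean square (RMS) difference of centred log2 values over the 8 arrays, for the 9 genes that varied at least as much as the median gene. Il23a was matched most closely, by Chrne (RMS 0.059), a subunit gene of the muscle acetylcholine receptor, and Armcx1 (0.076). Next came Socs3, with Unc5b (0.075), a netrin receptor gene, and Sh2b2 (0.11), an adaptor of receptor signalling. Il12b was nearest to Prmt1 (0.088), an arginine methyltransferase gene, and Psmg3 (0.089), and Cd80 to Ikzf2 (0.092), a transcription factor gene of regulatory T cells, and Engase (0.11). For Il10 the nearest gene was the proliferation marker Mki67 (RMS 0.12), which read 7.57, 7.73, 7.02 and 7.57 with rTF and 7.38, 6.67, 7.59 and 7.22 with rCPS1, followed by Coq7 (0.16). Il6 was nearest to Mblac2 (0.12) and Zfp324 (0.13), Tnf to Synb (0.11) and Clec2d (0.12), Il12a to Csdc2 (0.12) and Pwwp2b (0.12), and Cd40 to Scg5 (0.10) and Ghrhr (0.10). These are the nearest of 17191 genes searched over 8 arrays and describe these arrays only.

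Around these genes, 6 lists of pathway partners held 80 genes, of which 76 were measured, 45 lower and 31 higher with rCPS1. An adjusted p under 0.05 was reached by 0 of them and an unadjusted p under 0.05 by 2, beside 4.67% of all genes. The median difference of the 76 was -0.03, and 3 of them had groups that did not overlap, beside 2.92% of all genes.

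Among IL-10 receptor and response genes 7 of 10 were lower and 3 higher, with a median difference of -0.096 (-0.15 without rTF replicate 2, -0.050 without rCPS1 replicate 3) and 1 with an unadjusted p under 0.05. That gene, Il1rn, encodes the natural antagonist of the interleukin 1 receptor. It read 9.28, 9.27, 9.09 and 9.36 with rTF and 8.88, 8.90, 9.001 and 8.72 with rCPS1, all rCPS1 arrays below all rTF arrays. The difference was -0.37 ± 0.11 (SE, unadjusted p = 0.00752, adjusted p = 0.98), and it ran from -0.42 to -0.32 with any 1 array left out. Il10ra, the ligand-binding chain of the IL-10 receptor, had groups that did not overlap either, at 8.67 ± 0.11 with rTF and 8.50 ± 0.040 with rCPS1 (SD, n = 4 each), a difference of -0.17 ± 0.10 (SE, adjusted p = 0.98).

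Among the costimulation partners 14 of 18 were lower and 4 higher, with a median of -0.11 (-0.20 without rTF replicate 3, -0.061 without rTF replicate 2) and 1 with an unadjusted p under 0.05. Ctla4, the inhibitory receptor of T cells for CD80 and CD86, read 4.15, 6.001, 4.54 and 4.90 with rTF and 3.96, 4.12, 4.04 and 4.10 with rCPS1. All rCPS1 arrays lay below all rTF arrays, and rTF replicate 2 was the highest by over 1 log2 unit. The difference was -0.84 ± 0.32 (SE, unadjusted p = 0.0267, adjusted p = 0.98) with all arrays, -0.47 when rTF replicate 2 was left out and -1.09 when rTF replicate 1 was. Its unadjusted p was above 0.05 without rCPS1 replicate 1 and without rCPS1 replicate 3. Icos, a T cell costimulatory receptor, differed by -0.39 ± 0.24 (SE, adjusted p = 0.98), but -0.23 when rTF replicate 2 was left out and -0.64 (unadjusted p = 0.00405, adjusted p = 0.711) when rTF replicate 1 was.

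The IL-12 family list, which holds receptors, relatives and downstream cytokines, had 7 of 11 lower and 4 higher, with a median of -0.027 and 0 with an unadjusted p under 0.05. Its median turned to 0.064 without rTF replicate 1 and to 0.010 without rCPS1 replicate 1, and was -0.11 without rCPS1 replicate 3. Ifng, the product that IL-12 elicits from T and NK cells, differed by -0.53 ± 0.25 (SE, adjusted p = 0.98). It was at -0.34 when rTF replicate 2 was left out and at -0.69 (limma, unadjusted p = 0.019, adjusted p = 0.934) when rTF replicate 3 was. Without rCPS1 replicate 1 it was at -0.64 (limma, unadjusted p = 0.0387, adjusted p = 0.974). Il17a, at 2.501 ± 0.27 and 2.20 ± 0.12 (SD, n = 4 each), differed by -0.30 ± 0.15 (SE, adjusted p = 0.98). In the IL-6 family and STAT3 list 9 of 12 were higher and 3 lower, with a median of 0.12 (0.057 without rTF replicate 2, 0.19 without rTF replicate 3) and 0 with an unadjusted p under 0.05. Osm, the gene of the IL-6 relative oncostatin M, differed by -0.36 ± 0.23 (SE, adjusted p = 0.98), but by -0.18 when rTF replicate 2 was left out and by -0.59 (unadjusted p = 0.00489, adjusted p = 0.711) when rTF replicate 1 was. The kinase gene Jak2 differed by 0.20 ± 0.15 (SE, adjusted p = 0.98), or 0.058 without rTF replicate 2.

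TNF receptors, adaptors and feedback genes had 8 of 13 higher and 5 lower, with a median of 0.025 and 0 with an unadjusted p under 0.05. That median turned to -0.041 without rTF replicate 2 and to -0.016 with arrays centred on their medians. Birc2, a ubiquitin ligase of the TNF receptor complex, differed by 0.20 ± 0.13, and Cflar, an inhibitor of caspase 8, by 0.16 ± 0.13 (SE, adjusted p = 0.98 each), and Cflar was at 0.058 without rTF replicate 2. Transcription factors known to act on these cytokine promoters had 9 of 12 lower and 3 higher, with a median of -0.066 (-0.10 without rTF replicate 1, 0.0037 without rCPS1 replicate 3) and 0 with an unadjusted p under 0.05. The examples of smallest p were Batf (-0.15 ± 0.13) and Irf1 (0.15 ± 0.16; SE, adjusted p = 0.98 each). Without rCPS1 replicate 4 Batf was at -0.093, and Irf1 was at 0.041 when rTF replicate 2 was left out and at 0.24 when rTF replicate 3 was.

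Levels of 76 marker genes of 9 cell types were read in the preparation. None was listed at 0 on any array. Without detection calls that cannot show which cell types were present, and the lowest mean level was 2.06 (Camp). The Kupffer cell list averaged 9.37 to 9.95 on the rTF arrays and 9.46 to 10.16 on the rCPS1 arrays, with 9 of 11 genes higher. Of the 76, 0 passed an adjusted p of 0.05, and the counts at an unadjusted p under 0.05 that follow stand beside 4.67% of all genes (2.79% lower). All 8 monocyte genes were lower with rCPS1, 6 of them (Ly6c2, Ccr2, Chil3, F13a1, Fn1 and S100a4) with an unadjusted p under 0.05, and the list mean was 8.26 to 8.71 with rTF and 7.58 to 7.79 with rCPS1. All 10 neutrophil genes were lower, 8 of them (S100a8, S100a9, Ly6g, Cxcr2, Csf3r, Retnlg, Ngp and Mmp8) with an unadjusted p under 0.05, with a list mean of 5.88 to 6.71 against 4.75 to 5.57. Of the T and NK cell genes 9 of 10 were lower, 3 of them (Cd5, Nkg7 and Il7r) with an unadjusted p under 0.05, at 6.06 to 7.24 and 5.81 to 6.26. The 7.24 was rTF replicate 2, and the other rTF arrays read 6.06, 6.30 and 6.38. Dendritic cell genes, 7 of 8 lower, averaged 6.12 to 6.69 and 6.15 to 6.30, and B cell genes, 6 of 6 higher, 5.52 to 6.37 and 5.46 to 6.63, with 0 at an unadjusted p under 0.05 in either list. Sinusoidal endothelial genes averaged 11.26 to 11.54 and 11.35 to 11.49, hepatocyte genes 8.42 to 8.83 and 8.11 to 8.82, and stellate cell genes 4.78 to 5.73 and 4.82 to 5.54. In bulk RNA fewer cells of a type and less RNA per cell cannot be told apart, and the part of these cells in the cytokine and costimulation values was not tested.

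**Figure D4:**
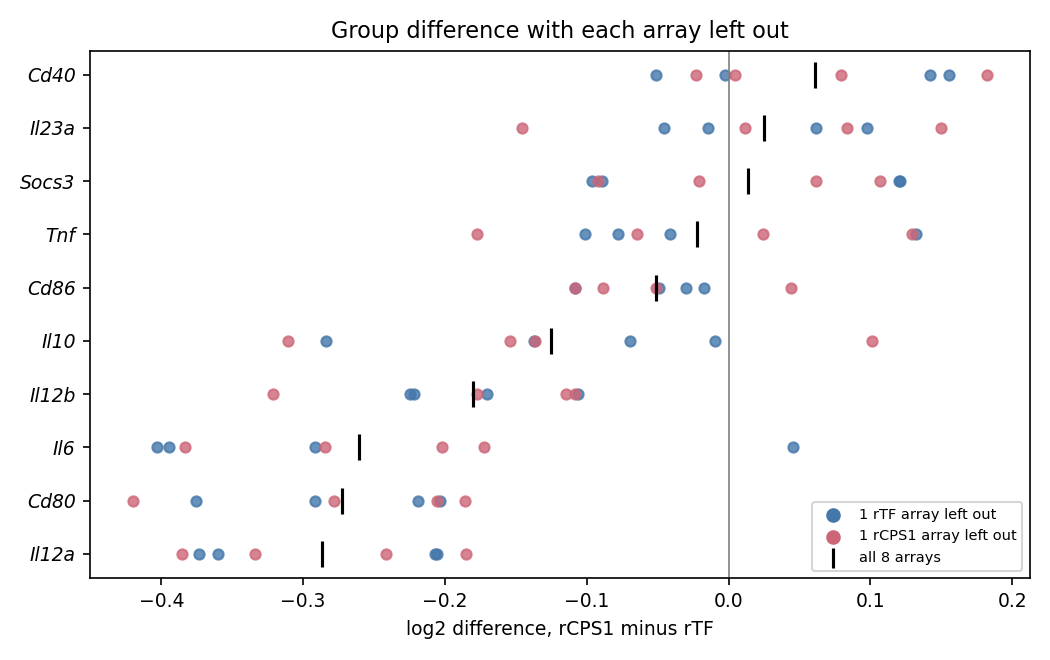
Log2 difference, rCPS1 minus rTF, of each gene with all 8 arrays (black bar) and with each array left out in turn (blue, 1 rTF array out; red, 1 rCPS1 array out). Only Il12a, Il12b and Cd80 stay on 1 side of 0 throughout, and a single blue point, without rTF replicate 2, carries Il6 across it to 0.046.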

How the data were processed

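Total RNA of hepatic macrophages was measured on 8 Affymetrix arrays from 400 ng of RNA, per the labels' protocols. The deposited values are log2 levels that the authors made with RMA (robust multi-array average), per the submitters' processing notes, which also name limma. Versions, genome build and the time from acetaminophen to isolation are not given in the sources used here. RMA forces arrays to a common distribution, so a shift of nearly all genes would not show. Precision is limited by having 4 arrays a group. Samples were grouped by title.

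Of 41345 rows, 23521 had exactly 1 symbol in the platform annotation, and 1082 genes had more than 1 row, of which the row of highest mean was taken, giving 22180 genes. The comparison of rCPS1 with rTF was fitted by lmFit and eBayes of limma 3.58.1, under R 4.3.3 (6 residual degrees of freedom before moderation, two-sided, Benjamini-Hochberg over all genes, threshold 0.05), tested on simulated data. Relations between genes used two-sided exact permutation tests over 40320 orders, adjusted over 45 pairs. Genes named are the 10 chosen, the 2 nearest in pattern to each of the 9 that varied enough, the 2 of smallest p in each pathway list, and listed genes with an unadjusted p under 0.05. The 10 genes and the lists were chosen with earlier results of these data known. Alternatives were a filter on dim rows, other variance models, array weights, a replicate block, other scalings, the mean of a gene's rows, all rows tested and each array left out. Of 169 listed genes 162 were measured, and the others are not analysed here.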

Additional observations from a re-analysis of the deposited data

Results flagged for a closer look

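Dixon's ratio set the most extreme array of a group against the other 3, for the 10 genes, the named partners, the genes nearest in pattern and the marker list means. It stood apart in 2 of 98 groups, where chance at 1 in 20 gives 4.9, and in 0 of the 20 groups of the 10 genes. The monocyte list mean was 8.71 on rTF replicate 3, against 8.26 to 8.32 on the other rTF arrays. The hepatocyte list mean was 8.11 on rCPS1 replicate 4, against 8.72 to 8.82 on the other rCPS1 arrays. The part of either array in the cytokine values was not tested.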

How the results depend on the processing

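Under 17 alternatives 0 of the 10 genes and 0 of all genes passed an adjusted p of 0.05, the smallest adjusted p of the 10 being 0.888. Pairs were rerun under 11 of these (other scalings, mean of rows, each array left out), and 0 passed. Of 170 recomputed differences 148 kept their direction and 22 turned, none of those to more than 0.15 in size, and Il12a, Il12b and Cd80 never turned. The 148 include settings that could not turn a sign. The filter on dim rows, the other variance models, the replicate block and the test of all rows leave each estimate unchanged. The mean of a gene's rows could change only Socs3. Array weights gave Tnf 0.029 and Socs3 -0.088. Quantile normalization again gave Il23a -0.010, centring on array medians gave Il23a -0.015 and Socs3 -0.026, and the mean of a gene's rows gave Socs3 -0.020. Centring moved the median of all genes from -0.018 to -0.058. With each array left out, Tnf ran from -0.18 to 0.13, Il6 from -0.40 to 0.046, Il10 from -0.31 to 0.10, Il23a from -0.15 to 0.15, Cd86 from -0.11 to 0.044, Cd40 from -0.051 to 0.18 and Socs3 from -0.096 to 0.12. The count with an unadjusted p under 0.05 ran from 0 to 1 (Il12b without rCPS1 replicate 1, Cd80 without rCPS1 replicate 3), and that of groups that do not overlap from 0 to 1 (Il12b without rCPS1 replicate 1). With the replicate block the count was 1, namely Il12a (limma, adjusted p = 0.995). Same-numbered arrays did not deviate together over all genes (r of deviations across genes -0.12, -0.033, -0.0053 and 0.025). With the replicate block the SE went from 0.22 to 0.13 for Tnf and from 0.18 to 0.12 for Il12a, but rose for Il10, Cd80 and Socs3. These values do not settle whether the numbers pair the arrays. The medians of the TNF, IL-12 and transcription factor lists turned sign with 1 array left out. The cause of these shifts was not tested. The files give no detection calls, so signal over background is unknown.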
